A study of Caenorhabditis elegans with 12 samples.

Results

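The nuo-6(qm200) mutant of Caenorhabditis elegans was compared with the wild type strain N2 at the L4 larval stage, by RNA sequencing of whole animals. The comparison used 6 of the 12 libraries of the study, 3 for each strain. Every gene that reached 1 TPM (a length-corrected share of all transcripts, set to the same total in every library) in at least 3 of these 6 libraries was kept, which left 14643 of the 46926 genes in the table, 14078 of them protein-coding. The other 6 libraries came from itr-1(sa73), a mutant of the inositol trisphosphate receptor, and from the double mutant nuo-6(qm200);itr-1(sa73), with 3 libraries each. They were used to estimate the spread between replicates and to show the same nuo-6 allele in animals that also carried the itr-1 mutation. All 4 strains were raised on the E. coli strain HT115 with an empty vector, and each culture pooled about 1000 animals that had been synchronised with bleach. Messenger RNA was selected by its poly(A) tail, the library kit kept strand, and the RNA integrity number was 10 in every sample.

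Complex I is the entry point of electrons from NADH into the mitochondrial respiratory chain, and nuo-6 encodes one of its small accessory subunits. The qm200 allele is a point mutation that changes an amino acid, lowers complex I function and lengthens life in worms. Worms answer a mild failure of the respiratory chain with changes in nuclear gene expression that involve mitochondrial chaperones, detoxification enzymes, defence genes and a lower output of the protein synthesis machinery. Because whole larvae were sequenced, a lower value can come from fewer cells of a type or from less RNA per cell, and the 2 cannot be told apart here.

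The nuo-6 transcript was listed at 329, 316 and 327 TPM in the 3 N2 libraries and at 374, 400 and 401 TPM in the nuo-6 libraries. An allele of this kind leaves the transcript in place, so this level does not check the labels. The first principal component of the 6 libraries held 82.3% of their variance and separated the strains. Levels correlated across genes at r between 0.9866 and 0.9931 within a strain and between 0.9315 and 0.9453 between the strains, where genes are not independent replicates. N2 replicate 2 stood somewhat apart from the other N2 libraries on that component, at -35.4 against -48.1 and -47.3. Markers of developmental progress moved with strain in part. The 31 genes of oocytes and early embryos had a mean log2(TPM + 1) of 3.60, 4.42 and 3.81 in N2 and 4.78, 4.99 and 4.88 in nuo-6, and 19 of them were called higher, 9 with median-of-ratios scaling. Without N2 replicate 1 or 3 or any 1 nuo-6 library that count was 4 to 9, and without all replicates 2 it was 29. Sperm genes took 0.239% to 0.328% of all TPM in N2 and 0.365% to 0.43% in nuo-6, and of 90 tested 21 were called higher and 9 lower, or 10 and 12 with that scaling. The number of sperm genes called higher was 37 with the replicate number as a block, and 7 to 13 without N2 replicate 1 or 3 or any 1 nuo-6 library. Vitellogenins overlapped between the strains, at a mean log2(TPM + 1) of 5.05, 7.43 and 6.14 in N2 and 5.76, 7.23 and 7.16 in nuo-6, and of the 6 genes 0 passed limma's test, also at an unadjusted p under 0.05, while with the replicate block 2 were higher and 1 lower. Germ line genes had a mean of 5.21 to 5.48 in N2 and 5.19 to 5.22 in nuo-6. The part of these markers in the results of stage-dependent genes was not tested.

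Expression differed widely between the strains. Of the 14643 genes, 7793 (53.2%) passed an adjusted p of 0.05 in limma's moderated test, adjusted by Benjamini-Hochberg over the whole set. Of these, 5500 (37.6%) were higher and 2293 (15.7%) lower in nuo-6. A change of at least 2-fold on the log2(TPM + 1) scale was reached by 1312 genes that were higher (8.96%) and by 242 that were lower (1.65%). The 3 libraries of each strain did not overlap for 9764 genes (66.7%).

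Fold changes depended on the level of the gene. Among genes under 5 TPM, 10.4% were called lower, and among the 316 genes at 500 TPM or more, 49.7% were. The abundant genes that were lower were largely those of protein synthesis: the 83 cytosolic ribosomal protein genes took 28.8% to 30.1% of all TPM in N2 and 22.9% to 23.3% in nuo-6. TPM are shares of a fixed total, and the median gene was 0.17 higher on the log2 scale in nuo-6. With the ribosomal protein genes left out and the rest brought back to the full sum, 4131 genes were called higher and 2996 lower. Scaling the libraries by the median of ratios instead moved that median to -0.01 and the split of calls from 5500 higher and 2293 lower to 3496 higher (23.9%) and 3844 lower (26.3%). Counts of gene lists in nuo-6 against N2 are therefore given under both scalings, and list medians are read against the median of all genes.

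**Figure D1:**
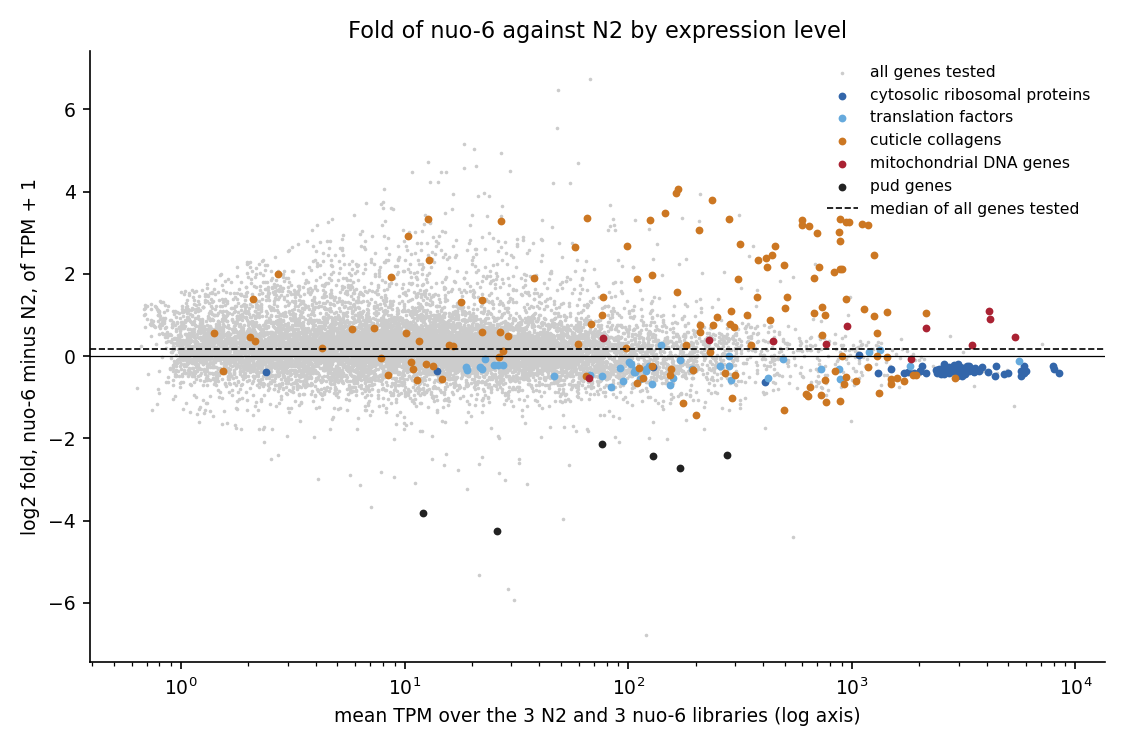
Each point is a gene, with its mean TPM over the 6 libraries on a log axis and its log2 fold of nuo-6 against N2, of TPM + 1, on the other axis. The dashed line marks the median of all genes, 0.17. Cytosolic ribosomal proteins and translation factors lie below it at high levels, cuticle collagens spread to both sides, and the 6 pud genes lie lowest among the coloured groups.

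In the mitochondria, genes for making and maintaining the organelle were more often higher than lower. The mitochondrial ribosome lay near the background: 46 of 70 genes were higher and 1 lower, but 11 and 8 under the other scaling. Its median was 0.03 above that of all genes. Of 15 import genes, 12 were higher and 9 under the other scaling, with a median 0.29 above that of all genes. The largest rise was that of timm-17B.2, a subunit of the inner membrane import channel, at 31.8, 31.5 and 24.3 TPM in N2 and 158, 142 and 153 TPM in nuo-6. Its log2 fold was 2.34 (SE 0.10, adjusted p = 5.71e-08), and no nuo-6 library came near the N2 range. Its paralog timm-17B.1 was the more abundant of the pair and rose less, from 174 ± 2.68 to 302 ± 8.97 TPM (SD, n = 3), with a log2 fold of 0.79 (limma adjusted p = 2.34e-06). The ratio of timm-17B.2 to timm-17B.1 went from 0.167 in N2 to 0.499 in nuo-6.

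Quinone biosynthesis, which makes the lipid carrier that takes electrons from complex I, had 10 of its 17 genes higher and 2 lower, and 10 and 3 under the other scaling. coq-8, an atypical kinase of the synthesis complex, was listed at 47.2, 52.6 and 45.8 TPM in N2 and at 112, 116 and 114 TPM in nuo-6, a log2 fold of 1.22 (SE 0.06, limma adjusted p = 8.83e-08). clk-1, the hydroxylase of a late step, rose from 29.1 ± 2.53 to 65.9 ± 3.05 TPM (log2 fold 1.16). coq-1, which builds the side chain, rose from 27.8 ± 1.45 to 62.1 ± 4.86 TPM (log2 fold 1.13). The 3 genes each kept the strains apart in every library.

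Transcripts of the mitochondrial genome took 1.67% to 2.00% of all TPM in N2 and 2.79% to 2.88% in nuo-6. Of the 12 mitochondrial genes on the list, 7 were called higher, and under the other scaling 5 were higher and 2 lower, so the rise was uneven. COX2, a cytochrome c oxidase subunit, stood at 3092, 2549 and 2976 TPM in N2 and 5309, 5414 and 5467 TPM in nuo-6 (log2 fold 0.91, SE 0.08, limma adjusted p = 4.21e-06). COX3 rose from 4502 ± 179 to 6207 ± 283 TPM (log2 fold 0.46), whereas ND1, a complex I subunit, was at 1878 ± 198 and 1783 ± 90.0 TPM and did not pass the test (adjusted p = 0.454). Among nuclear genes, 31 of 33 for complex I, 4 of 5 for complex II, 7 of 9 for complex III and 14 of 15 for complex IV were called higher, with medians 0.17, 0.30, 0.12 and 0.16 above that of all genes. Complex V, the ATP synthase, had 7 of 10 genes higher and 2 lower, with its median at that of all genes. Under the other scaling 12, 3, 3 and 6 genes of complexes I to IV were higher and 1 of complex I, 2 of complex III and 1 of complex IV lower, and for complex V 3 of the 10 genes were lower and the other 7 did not pass the test.

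Carriers and the tricarboxylic acid cycle showed the same mixture of small rises with a few clear falls. Of 19 mitochondrial carrier genes 14 were higher and 3 lower, and 7 and 4 under the other scaling. mpc-2, a subunit of the mitochondrial pyruvate carrier, went from 124, 115 and 123 TPM to 231, 216 and 237 TPM, a log2 fold of 0.91 (SE 0.06, limma adjusted p = 5.60e-07). mtch-1, a mitochondrial carrier homolog, moved the other way, from 144, 153 and 138 TPM to 64.6, 63.2 and 60.4 TPM, a log2 fold of -1.19 (SE 0.05, limma adjusted p = 5.04e-08). The libraries of both genes did not overlap between strains. Of 26 cycle genes 17 were higher and 3 lower, but 5 and 4 under the other scaling, with the aconitase gene aco-2 showing one of the clearer rises, from 357 ± 29.3 to 544 ± 10.7 TPM (log2 fold 0.61).

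Of 49 tested regulators known from work on mitochondrial longevity, 27 were higher and 1 lower, and 14 and 4 under the other scaling. atfs-1, the transcription factor of the mitochondrial unfolded protein response, was at 35.6, 32.6 and 34.6 TPM in N2 and 65.9, 72 and 68.9 TPM in nuo-6, a log2 fold of 0.99 (SE 0.08, limma adjusted p = 2.42e-06). daf-16, the FOXO factor of the insulin pathway, rose from 39.3 ± 0.840 to 62 ± 1.96 TPM, and skn-1, the Nrf-type factor of the oxidative stress response, from 39.3 ± 2.43 to 62 ± 4.14 TPM. clpp-1, the mitochondrial matrix protease, rose from 44.2 ± 2.81 to 88 ± 2.90 TPM (log2 fold 0.98). The one regulator called lower was atf-4, a factor of the integrated stress response, which fell from 120 ± 1.81 to 94.4 ± 3.09 TPM (log2 fold -0.35, limma adjusted p = 9.47e-05).

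The lower share of ribosomal protein genes was joined by the genes that build and use ribosomes. Of 42 translation factor genes, 32 were lower and 2 higher, and 39 were lower under the other scaling, with a median 0.48 below that of all genes. erfa-1, the release factor that ends translation, fell from 189 ± 4.35 to 117 ± 4.15 TPM, with log2 fold -0.69 (SE 0.05, limma adjusted p = 2.87e-06). inf-1, the helicase eIF4A, fell from 343 ± 11.2 to 231 ± 10.2 TPM (log2 fold -0.57). No library of either gene in nuo-6 reached the N2 range.

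Of 35 ribosome biogenesis genes, 23 were lower and 3 higher, and 29 and 2 under the other scaling, with a median 0.57 below that of all genes. rpoa-2, a large subunit of RNA polymerase I, which transcribes ribosomal RNA, went from 37.4, 39.1 and 40.0 TPM to 16.4, 16.6 and 17.1 TPM. Its log2 fold was -1.17 (SE 0.06, limma adjusted p = 2.46e-07). nol-58, a core protein of the particles that guide methylation of ribosomal RNA, went from 251, 262 and 268 TPM to 139, 140 and 145 TPM (log2 fold -0.87). dkc-1 and garr-1, core proteins of the particles that guide pseudouridine formation, fell by 0.92 and 0.86 on the log2 scale. The replicates of these genes lay within a few percent of each other in each strain, and the falls were many times that spread.

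Genes of detoxification families were more often higher than lower in nuo-6. Of 74 cytochrome P450 genes, which oxidise foreign and endogenous lipophilic molecules, 54 were tested and 34 were higher and 10 lower, and 30 and 10 under the other scaling. At least a 2-fold rise was seen for 42.6% of the tested P450 genes, beside 8.96% of all genes. The filter let in 8 of these genes through the nuo-6 libraries alone and 3 through the N2 libraries alone, and those had to differ. cyp-14A4 was listed at 0.352, 0.798 and 0.432 TPM in N2 and 31.6, 24.8 and 26.7 TPM in nuo-6 (log2 fold 4.24, SE 0.15, limma adjusted p = 1.62e-08), and its relative cyp-14A1 rose from 2.45 ± 0.610 to 24.3 ± 1.94 TPM. cyp-33C8 rose from 3.16 ± 0.790 to 51.3 ± 7.93 TPM (log2 fold 3.66). cyp-35A3 and cyp-35C1, of a subfamily known for its response to foreign compounds, fell: cyp-35A3 was at 10.6, 30.6 and 21 TPM in N2 and 0.513, 2.76 and 1.35 TPM in nuo-6 (log2 fold -3.08, limma adjusted p = 8.28e-05). The N2 libraries varied widely in cyp-35A3, and the lowest of them was still above every nuo-6 library.

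Of 55 tested UDP-glucuronosyltransferase genes, whose products attach sugar acids to make compounds soluble, 30 were higher and 4 lower, and 28 and 9 under the other scaling. The filter let in 4 of them through the nuo-6 libraries alone and 1 through the N2 libraries alone, which fixed their direction. ugt-62 was the most abundant of the strong risers, at 88.7, 113 and 89.4 TPM in N2 and 701, 530 and 652 TPM in nuo-6, a log2 fold of 2.68 (SE 0.15, limma adjusted p = 2.83e-07). ugt-19 rose from 15.7 ± 2.92 to 101 ± 12.2 TPM and ugt-2 from 5.34 ± 1.96 to 44.3 ± 3.88 TPM. Of 43 tested glutathione S-transferase genes 27 were higher and 4 lower, and 20 and 7 under the other scaling, with 5 let in through the nuo-6 libraries alone. gst-14 rose from 0.303 ± 0.0703 to 8.08 ± 2.49 TPM (log2 fold 2.77), and the abundant gst-10, which conjugates products of lipid peroxidation, fell from 448 ± 93.4 to 184 ± 22.7 TPM (log2 fold -1.27, limma adjusted p = 4.42e-05). The direction within these families was thus not shared by every abundant member.

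Genes that handle metals and haem were close to the background in number, with 18 of 43 higher and 5 lower, and 15 and 10 under the other scaling, but 8 rose at least 2-fold. cdr-2, of a family first described for its response to cadmium, stood at 27.3, 29.7 and 32.3 TPM in N2 and 336, 278 and 336 TPM in nuo-6 (log2 fold 3.37, SE 0.15, limma adjusted p = 4.95e-08), and cdr-4 rose from 25.5 ± 6.34 to 222 ± 11.3 TPM. ftn-1, a ferritin gene that is controlled by iron, rose from 22.5 ± 2.57 to 82.9 ± 10.6 TPM (log2 fold 1.83), whereas the abundant ferritin gene ftn-2 was at 888 ± 16.7 and 840 ± 53.1 TPM (adjusted p = 0.271, and 0.00971 and lower under the other scaling). hrg-9, a haem-responsive gene, rose from 8.12 ± 2.52 to 26.8 ± 0.803 TPM (log2 fold 1.64). Of 18 genes for sulfide and cysteine metabolism 8 were higher and 4 lower, and 6 and 5 under the other scaling. sqrd-1, the quinone-linked enzyme that oxidises sulfide in mitochondria, went from 3.11, 4.05 and 2.57 TPM to 15.6, 16.9 and 17.2 TPM (log2 fold 2.06, SE 0.13, limma adjusted p = 4.63e-07), and ethe-1, the dioxygenase of the next step, from 5.64 ± 0.911 to 14.3 ± 0.772 TPM. cbs-2, a cystathionine beta-synthase gene, fell from 11.7 ± 0.622 to 5.14 ± 0.266 TPM (log2 fold -1.05).

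**Figure D2:**
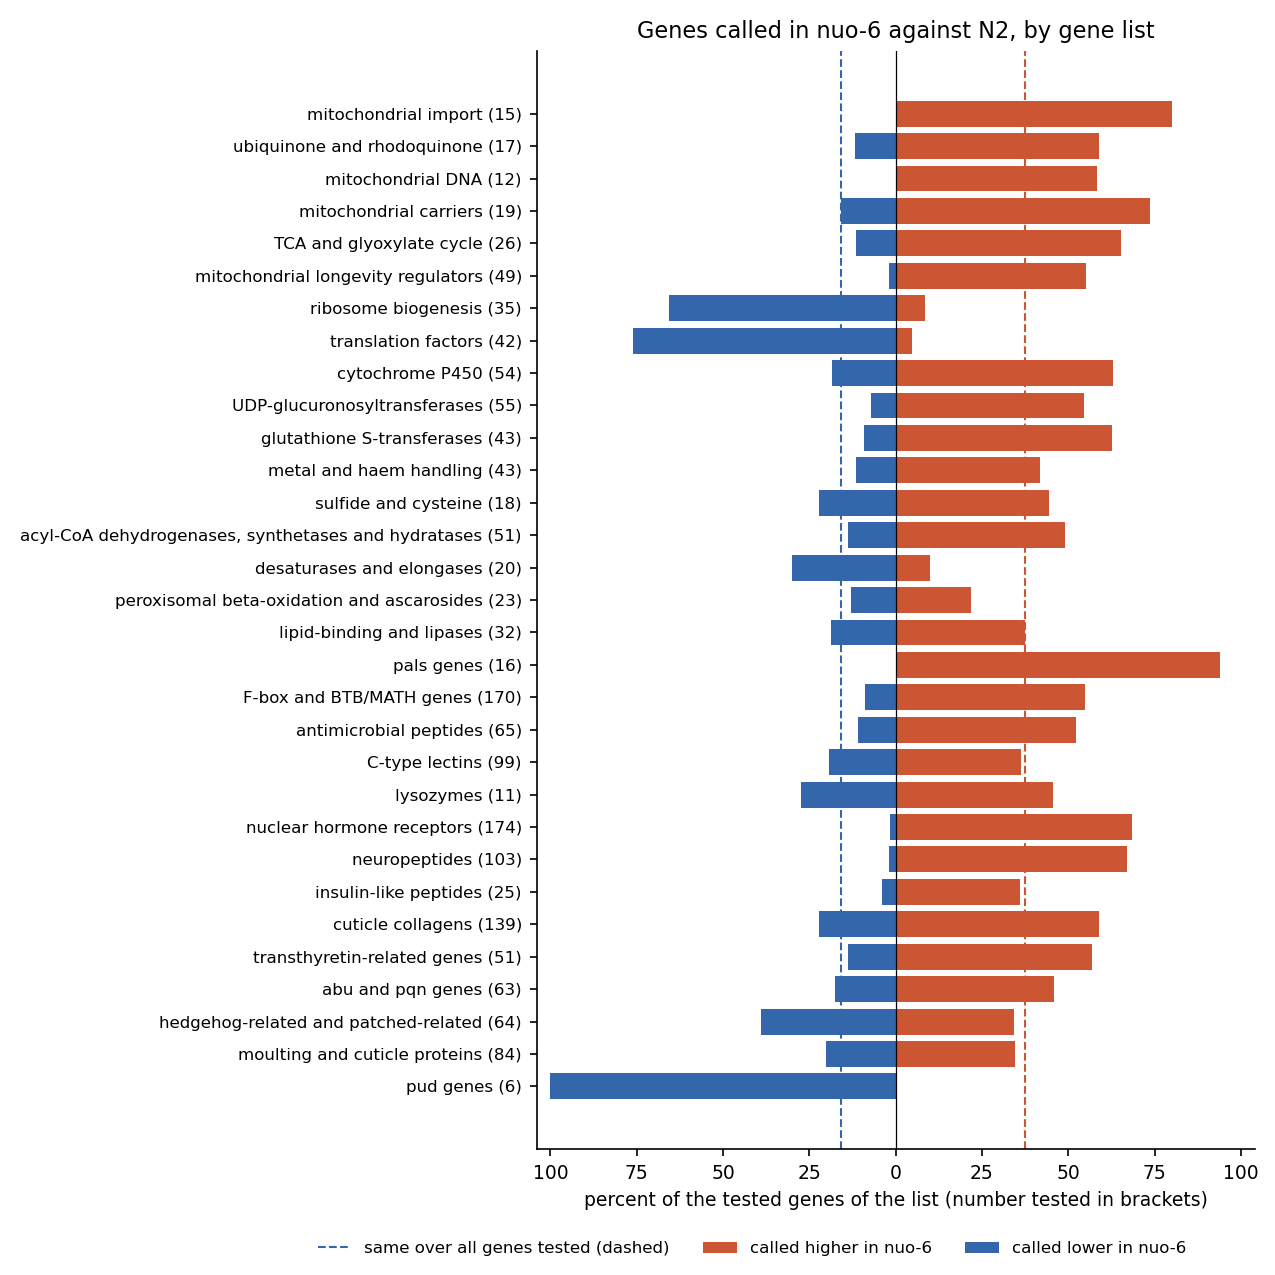
Bars give the percent of the tested genes of each list that were called higher (right) or lower (left) in nuo-6 than in N2, with the number tested in brackets, and dashed lines give the same for all 14643 genes, 37.6% and 15.7%. Translation factors and ribosome biogenesis lie mostly to the left, while pals genes, nuclear hormone receptors and neuropeptides have few or no genes called lower.

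Genes of lipid metabolism went in both directions. Of 20 desaturase and elongase genes, 6 were lower and 2 higher, and 13 and 1 under the other scaling. fat-7, a stearoyl-CoA desaturase, fell from 30.0, 22.1 and 27.6 TPM to 3.10, 4.31 and 2.89 TPM (log2 fold -2.64, SE 0.17, limma adjusted p = 6.24e-07). fat-5, the palmitoyl-CoA desaturase of the same family, rose from 1.5, 2.96 and 3.17 TPM to 26.6, 11.9 and 14.3 TPM (log2 fold 2.35, limma adjusted p = 1.95e-04). The strains did not overlap in either gene, and the 2 desaturases moved in opposite directions. The abundant fat-6 was at 274 ± 44.6 and 335 ± 23.9 TPM and did not pass the test (limma adjusted p = 0.0749), but did with the replicate number as a block (adjusted p = 0.0462).

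Of 23 peroxisomal and ascaroside genes, 5 (21.7%) were higher and 3 (13%) lower, and 4 and 6 under the other scaling. These shares were below the 37.6% and 15.7% of all genes. acox-1.2, a peroxisomal acyl-CoA oxidase of ascaroside pheromone synthesis, was listed at 75.6, 105 and 111 TPM in N2 and at 3.50, 5.75 and 6.83 TPM in nuo-6, a log2 fold of -3.97 (SE 0.35, limma adjusted p = 5.75e-06). Its relative acox-1.4 fell less, from 61.4 ± 1.32 to 37.5 ± 0.534 TPM, and prx-19, which places membrane proteins in peroxisomes, rose from 80.0 ± 5.71 to 176 ± 2.23 TPM (log2 fold 1.13). The N2 and nuo-6 libraries did not overlap for any of the 3 genes. Of 51 genes for acyl-CoA dehydrogenases, synthetases and hydratases 25 were higher and 7 lower, but 14 and 12 under the other scaling. The fatty acid and retinol binding gene far-3 rose from 1.48, 1.99 and 2.00 TPM to 41.5, 43.4 and 37.8 TPM (log2 fold 3.89, limma adjusted p = 4.71e-08), and the lipase gene lips-6 fell from 10.7 ± 1.80 to 0.629 ± 0.545 TPM (log2 fold -2.88).

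Defence genes of different kinds behaved differently. The pals genes, many of which respond to microsporidia and virus infection of the gut, had 16 of 38 members tested, and 15 of these were higher and 12 under the other scaling. The filter let in 6 of the 16 through the nuo-6 libraries alone. Summed over all 38 members, without any filter, pals transcripts came to 41.3, 47.2 and 54.8 TPM in N2 and to 183, 127 and 142 TPM in nuo-6. pals-14 was listed at 0.181, 0.195 and 0.184 TPM in N2 and 6.05, 3.80 and 3.86 TPM in nuo-6 (log2 fold 2.21, SE 0.18, limma adjusted p = 4.07e-06), and pals-6 rose from 0.695 ± 0.224 to 9.80 ± 3.59 TPM. In both genes the first nuo-6 library was the highest.

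F-box and BTB/MATH genes, large families of adaptors for ubiquitin ligases, had 170 of 412 members tested, 93 higher and 15 lower, and 76 and 25 under the other scaling. The filter let in 23 of them through the nuo-6 libraries alone, and the sum over all 412 members was 902 to 1003 TPM in N2 and 1285 to 1359 TPM in nuo-6. bath-45 went from 0.380, 0.638 and 0.554 TPM to 9.21, 9.30 and 11.2 TPM (log2 fold 2.84, limma adjusted p = 2.06e-08), and fbxa-182 from 0.772 ± 0.0465 to 9.66 ± 2.01 TPM (log2 fold 2.57). Several of these genes have near-identical copies, and the counting of reads may divide them unevenly between copies.

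Antimicrobial peptide genes were more often higher than lower, with 34 of 65 tested members higher and 7 lower, and 29 and 11 under the other scaling. The nuo-6 libraries alone let in 6 of them, which had to be higher. Yet their summed level did not rise: the whole list took 1.07% to 1.2% of all TPM in N2 and 1.01% to 1.09% in nuo-6. The abundant spp-17, a saposin-like gene, fell from 1674, 1212 and 1567 TPM to 454, 460 and 569 TPM (log2 fold -1.58, SE 0.13, limma adjusted p = 4.35e-06). fipr-11, of a family related to fungus-induced peptides, rose from 9.42, 9.72 and 9.42 TPM to 31.3, 29.5 and 31.8 TPM (log2 fold 1.60). Of 11 lysozyme genes 5 were higher and 3 lower, and 4 and 5 under the other scaling. ilys-5, an invertebrate-type lysozyme gene, showed the largest fall of any gene named under the rule for the largest changes, from 1093, 860 and 1175 TPM to 34, 60.1 and 53.8 TPM (log2 fold -4.40, SE 0.32, limma adjusted p = 1.70e-06), and lys-4 fell from 194 ± 14 to 62.6 ± 4.93 TPM. Of 99 tested C-type lectin genes 36 were higher and 19 lower, but 28 and 30 under the other scaling, near the shares of all genes under each. The filter let in 9 of them through the nuo-6 libraries alone and 4 through the N2 libraries alone. The largest rises named were those of clec-47 (4.0 ± 1.73 to 87.8 ± 11.8 TPM) and clec-17 (0.232 ± 0.0756 to 15.7 ± 2.06 TPM).

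Nuclear hormone receptors, a family of ligand-gated transcription factors that is unusually large in this worm, were more often higher than lower, mostly by less than 2-fold. Of 174 tested members 119 (68.4%) were higher and 3 lower, beside 37.6% and 15.7% of all genes, and 78 and 5 under the other scaling. The filter let in 11 of them through the nuo-6 libraries alone, nhr-155 among them, and 1 through the N2 libraries alone, and those had to differ. Of these genes 21 rose at least 2-fold, and the median was 0.27 above that of all genes. nhr-61 had a large rise, from 4.05, 4.80 and 4.59 TPM to 43.8, 39.6 and 36.2 TPM (log2 fold 2.90, SE 0.16, limma adjusted p = 2.20e-07). nhr-155 rose from 0.109, 0.059 and 0.083 TPM to 11.1, 13.9 and 15.2 TPM (log2 fold 3.72, limma adjusted p = 8.55e-09). nhr-234 was one of the 3 that were lower, from 19.7, 17.9 and 12.1 TPM to 2.23, 1.27 and 0.576 TPM (log2 fold -2.93, limma adjusted p = 5.07e-06). The 3 receptors kept the strains apart in every library.

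Neuropeptide genes were also more often higher: 69 of 103 were higher and 2 lower, and 41 and 5 under the other scaling, but 5 reached 2-fold. Their summed level was 3756 to 4027 TPM in N2 and 5013 to 5315 TPM in nuo-6. nlp-27, a small peptide gene of the nlp-29 group, rose from 36.7, 46.8 and 29.4 TPM to 155, 164 and 197 TPM (log2 fold 2.18, SE 0.15, limma adjusted p = 9.27e-07), and nlp-67 rose from 2.95 ± 0.312 to 10.1 ± 0.843 TPM. General markers of neurons moved the same way: 8 of 14 were higher, and 5 under the other scaling, and their mean log2(TPM + 1) was 4.33 to 4.41 in N2 and 4.64 to 4.76 in nuo-6. The part of this marker shift in the neuropeptide counts was not tested.

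Among 25 tested insulin-like peptide genes 9 (36.0%) were higher and 1 (4.0%) lower, beside 37.6% and 15.7% of all genes, and 6 and 2 under the other scaling. ins-35 went from 19.3, 13.1 and 23.3 TPM to 103, 67 and 128 TPM (log2 fold 2.34, SE 0.33, limma adjusted p = 1.52e-04), and ins-11 from 2.06 ± 0.767 to 9.67 ± 2.48 TPM. daf-28, an insulin that opposes dauer arrest, rose from 13 ± 1.35 to 25.6 ± 2.16 TPM (log2 fold 0.92). In ins-35 the second library was the lowest of each strain. Chemoreceptors, which are expressed in few neurons, gave 22 tested genes of 1306, with 6 let in through the nuo-6 libraries alone, and 15 of the 22 were higher and 5 lower, and 13 and 7 under the other scaling.

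The cuticle, which the larva rebuilds at each moult, is made largely of collagens. Of 139 tested cuticle collagen genes 82 (59%) were higher and 31 (22.3%) lower, and 72 and 39 under the other scaling, and 61 rose at least 2-fold (43.9%, beside 8.96% of all genes). Collagens took 4.86%, 5.50% and 5.73% of all TPM in N2 and 7.93%, 8.13% and 8.16% in nuo-6. dpy-17, needed for normal body shape, went from 2.30, 1.54 and 1.17 TPM to 22.9, 15.9 and 18.6 TPM (log2 fold 2.92, SE 0.18, limma adjusted p = 4.59e-07). col-92 went from 266, 379 and 337 TPM to 1267, 1413 and 1335 TPM (log2 fold 2.04, limma adjusted p = 4.70e-07). Both genes separated the strains completely.

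Some collagens varied within N2 as the stage markers did. col-19, which is used as a marker of the adult cuticle, was listed at 63.9, 254 and 120 TPM in N2 and 907, 1277 and 1252 TPM in nuo-6 (log2 fold 3.17, SE 0.57, limma adjusted p = 8.42e-04). col-143 was at 5.62, 51.7 and 15 TPM in N2 and 193, 377 and 364 TPM in nuo-6 (log2 fold 4.07, SE 0.90, limma adjusted p = 0.00305). In both genes N2 replicate 2 was the highest N2 library and was still below every nuo-6 library, and it was also the highest N2 library for oocyte, sperm and vitellogenin genes. Collagens that fell included bli-2, a component of adult cuticle struts, from 1097, 1020 and 1035 TPM to 505, 460 and 492 TPM (log2 fold -1.11, limma adjusted p = 2.33e-05), and sqt-3, from 1712 ± 98.1 to 922 ± 77 TPM. mlt-10, a gene that is expressed in bursts at moults, fell from 272 ± 5.71 to 92.1 ± 11.1 TPM (log2 fold -1.56). The collagens that rose and those that fell thus included members known from different steps of cuticle formation, and the part of developmental timing in these values was not tested.

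Other extracellular families differed in direction. Of 64 tested hedgehog-related and patched-related genes 22 were higher and 25 lower, and 16 and 30 under the other scaling. grl-4, a ground-like gene of this group, went from 21 ± 4.09 to 108 ± 12.5 TPM (log2 fold 2.31, SE 0.13, limma adjusted p = 2.21e-07), and nas-30, an astacin-type protease gene, from 22.1 ± 3.35 to 79.1 ± 2.57 TPM. Of 51 transthyretin-related genes 29 were higher and 7 lower, and 23 and 10 under the other scaling, with ttr-23 rising from 1.61 ± 0.696 to 24.4 ± 9.84 TPM. Of 63 abu and pqn genes, whose proteins are rich in glutamine and asparagine, 29 were higher and 11 lower, and 26 and 17 under the other scaling. abu-6 went from 3.74, 5.12 and 4.24 TPM to 15.7, 18.6 and 17.5 TPM (log2 fold 1.77, limma adjusted p = 2.98e-07). Of 20 germ line genes 3 were higher and 6 lower (5 higher with the replicate number as a block), but 1 and 10 under the other scaling. glh-4, a helicase of germ granules, fell from 30.9, 35.2 and 30.5 TPM to 11, 12.6 and 12.3 TPM (log2 fold -1.36, limma adjusted p = 2.42e-06).

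Among genes with a full gene name, expressed at 5 TPM or more in one strain and not overlapping between strains, the largest rise was that of tbb-6, a beta-tubulin isotype known to respond to mitochondrial stress, from 3.33, 4.33 and 2.97 TPM to 124, 112 and 111 TPM (log2 fold 4.69, SE 0.10, limma adjusted p = 2.40e-10). gmd-2, which encodes an enzyme that acts on GDP-mannose, followed at 1.18, 2.08 and 1.58 TPM in N2 and 54.8, 52.9 and 65.9 TPM in nuo-6 (log2 fold 4.50, limma adjusted p = 8.70e-07). tts-1, a long noncoding RNA that is abundant in long-lived daf-2 mutants, went from 77, 50.7 and 34.2 TPM to 641, 558 and 507 TPM (log2 fold 3.44, limma adjusted p = 1.01e-06). It was the only gene that is not protein-coding among the 15 largest rises. fmo-2, a flavin-containing monooxygenase gene whose product extends life in worms, rose from 0.455 ± 0.0439 to 16.9 ± 3.66 TPM (log2 fold 3.60).

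Larger changes were found among genes known by clone names, and the following were chosen after their values were seen. C07G1.7 on chromosome IV was listed at 0.212, 0.635 and 0 TPM in N2 and at 136, 137 and 129 TPM in nuo-6 (log2 fold 6.75, limma adjusted p = 2.97e-09). BE0003N10.6 on chromosome III was at 223, 239 and 252 TPM in N2 and 1.18, 0.959 and 1.47 TPM in nuo-6 (log2 fold -6.77, limma adjusted p = 1.31e-10). The neighbours D1014.6 and D1014.7 on chromosome V were at 61.4 ± 1.52 and 57.5 ± 1.33 TPM in N2 and at 0.0187 ± 0.0190 and 0.161 ± 0.0668 TPM in nuo-6. In each of these genes the strains were separated by far more than the spread of their libraries. An effect of the qm200 allele and any other genetic difference between the strains at these genes cannot be told apart from TPM. The falls were already large in itr-1 animals, where BE0003N10.6 stood at 10.2, 14.6 and 12.6 TPM and D1014.6 at 2.59, 3.65 and 3.39 TPM.

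At the low end of expression, 462 genes reached 1 TPM in all 3 nuo-6 libraries and in no N2 library, and 94 did so the other way round. Few were abundant: 52 of the 462 and 10 of the 94 had a mean of 5 TPM or more in the strain that carried them. The number of genes at 1 TPM or more was 13879 to 14040 in the N2 libraries and 14639 to 14680 in the nuo-6 libraries.

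Some of the genes that changed strongly lay side by side. Runs of at least 4 neighbouring tested genes that were all called and moved at least 2-fold the same way numbered 18 upward, with 83 genes, and 3 downward, with 14 genes. The pud genes, named for proteins that are more abundant in a long-lived daf-2 mutant, form a cluster on chromosome V (WBcel235 positions 2322038 to 2330930), and all 6 fell. pud-3 went from 46.4, 32.7 and 71 TPM to 1.56, 1.35 and 1.78 TPM (log2 fold -4.25, SE 0.35, limma adjusted p = 3.51e-06), and the abundant pud-1.2 from 472, 285 and 646 TPM to 81.6, 73.8 and 94.5 TPM (log2 fold -2.40, limma adjusted p = 8.21e-05). The N2 libraries differed widely in these genes, with replicate 2 the lowest and replicate 3 the highest in both. pud-1.1 and pud-1.2, and likewise pud-2.1 and pud-2.2, are close copies, so the division of reads within each pair is uncertain.

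The second downward run lay further along the same chromosome (3157086 to 3168750) and held exh-1, which went from 106, 83.2 and 93.8 TPM to 16.6, 14.7 and 11.8 TPM (log2 fold -2.64, limma adjusted p = 1.59e-07), with 3 genes beside it. The third was a group of nematode-specific peptide genes on the X chromosome, where nspc-5 went from 49.8, 50.8 and 51 TPM to 4.75, 6.29 and 5.37 TPM (log2 fold -3.0, limma adjusted p = 5.08e-07). The longest upward run held 7 genes on chromosome V (579277 to 612513), with log2 folds from 1.42 to 6.47. Its highest member, K06H6.2, was listed at 0, 0 and 0.297 TPM in N2 and at 93.2, 82.3 and 114 TPM in nuo-6. Next to it, with 1 tested gene between, a run of 6 genes (539460 to 564446) began with nhr-155.

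**Figure D3:**
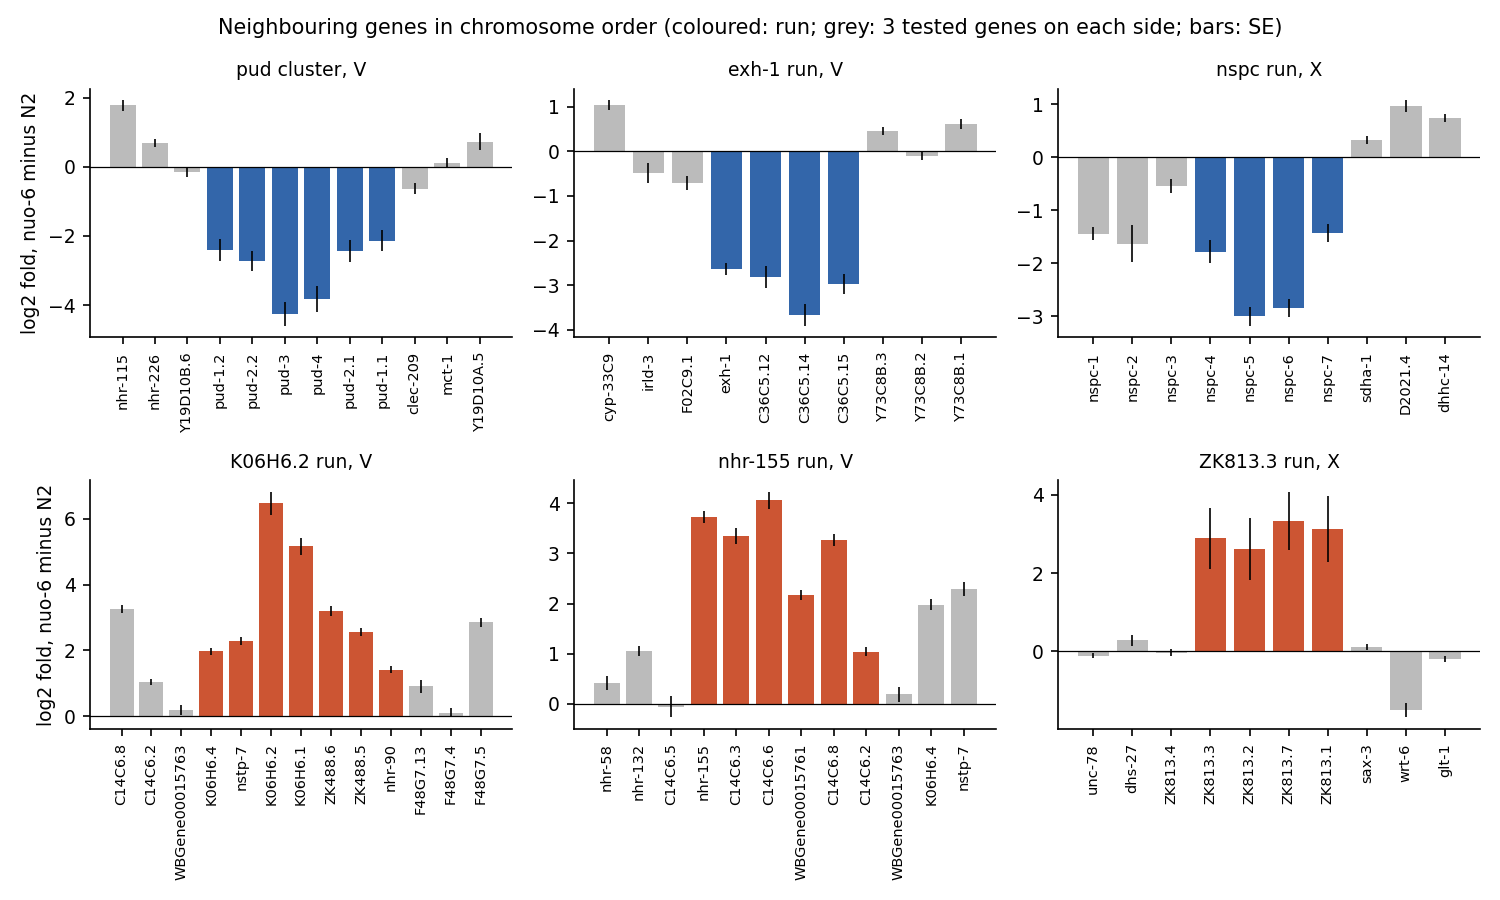
Bars give the log2 fold of nuo-6 against N2 (TPM + 1) of tested genes in chromosome order, with error bars of 1 standard error, for the 3 downward runs and 3 of the 18 upward runs. Coloured bars are the genes of the run and grey bars the 3 tested genes on each side. The pud genes reach -4.25 and K06H6.2 reaches 6.47, while most of the grey neighbours lie closer to 0.

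Strong rises were spread unevenly over the chromosomes. On chromosome V 417 of 2879 tested genes (14.5%) rose at least 2-fold, and on chromosome I 126 of 2388 (5.28%) did. The other autosomes and the X chromosome lay between these values, from 6.23% on III to 10.0% on X. Genes that fell at least 2-fold made up 2.61% on V and 0.479% on III.

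Several enzyme and structural pairs changed their balance. In 23 pairs of isozymes or paralogs with both genes tested, 10 moved the same way, 3 in opposite directions, and in 10 only 1 gene was called. Of the 64 tested genes of this list 35 (54.7%) were higher and 13 (20.3%) lower, and 23 and 17 under the other scaling. The shares of all genes were 37.6% and 15.7%. The rarer gene of a pair had the larger rise in several of them: trxr-2, the mitochondrial thioredoxin reductase, rose from 8.71 ± 0.380 to 21.3 ± 1.26 TPM (log2 fold 1.2) and trxr-1 from 70.0 ± 3.29 to 82.4 ± 2.59 TPM (log2 fold 0.23, and not past the test under the other scaling, adjusted p = 0.633). mtl-1, a metallothionein gene, was at 0.625, 0.347 and 0.165 TPM in N2 and 37.8, 21.5 and 31.6 TPM in nuo-6 (log2 fold 4.48, limma adjusted p = 2.05e-07), while mtl-2 was at 317 ± 84.6 and 384 ± 105 TPM (adjusted p = 0.49). In other pairs the rarer gene rose less or fell. The rarer pyruvate kinase gene pyk-2 rose by 0.27 on the log2 scale and pyk-1 by 0.49, and fat-7, rarer than fat-6, fell. Under the other scaling pyk-2 did not pass the test. The opposite directions were found in 2 pairs of ATP synthase subunits besides the tubulins: asb-1 fell by 0.36 and asb-2 rose by 0.26 on the log2 scale, and asg-1 fell by 0.17 and asg-2 rose by 0.29. Under the other scaling asb-1 and asg-1 were still lower and asb-2 and asg-2 did not pass the test. Fewer pairs moved the same way under that scaling, and the ferritin and cytochrome c pairs were then called in opposite directions.

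**Figure D4:**
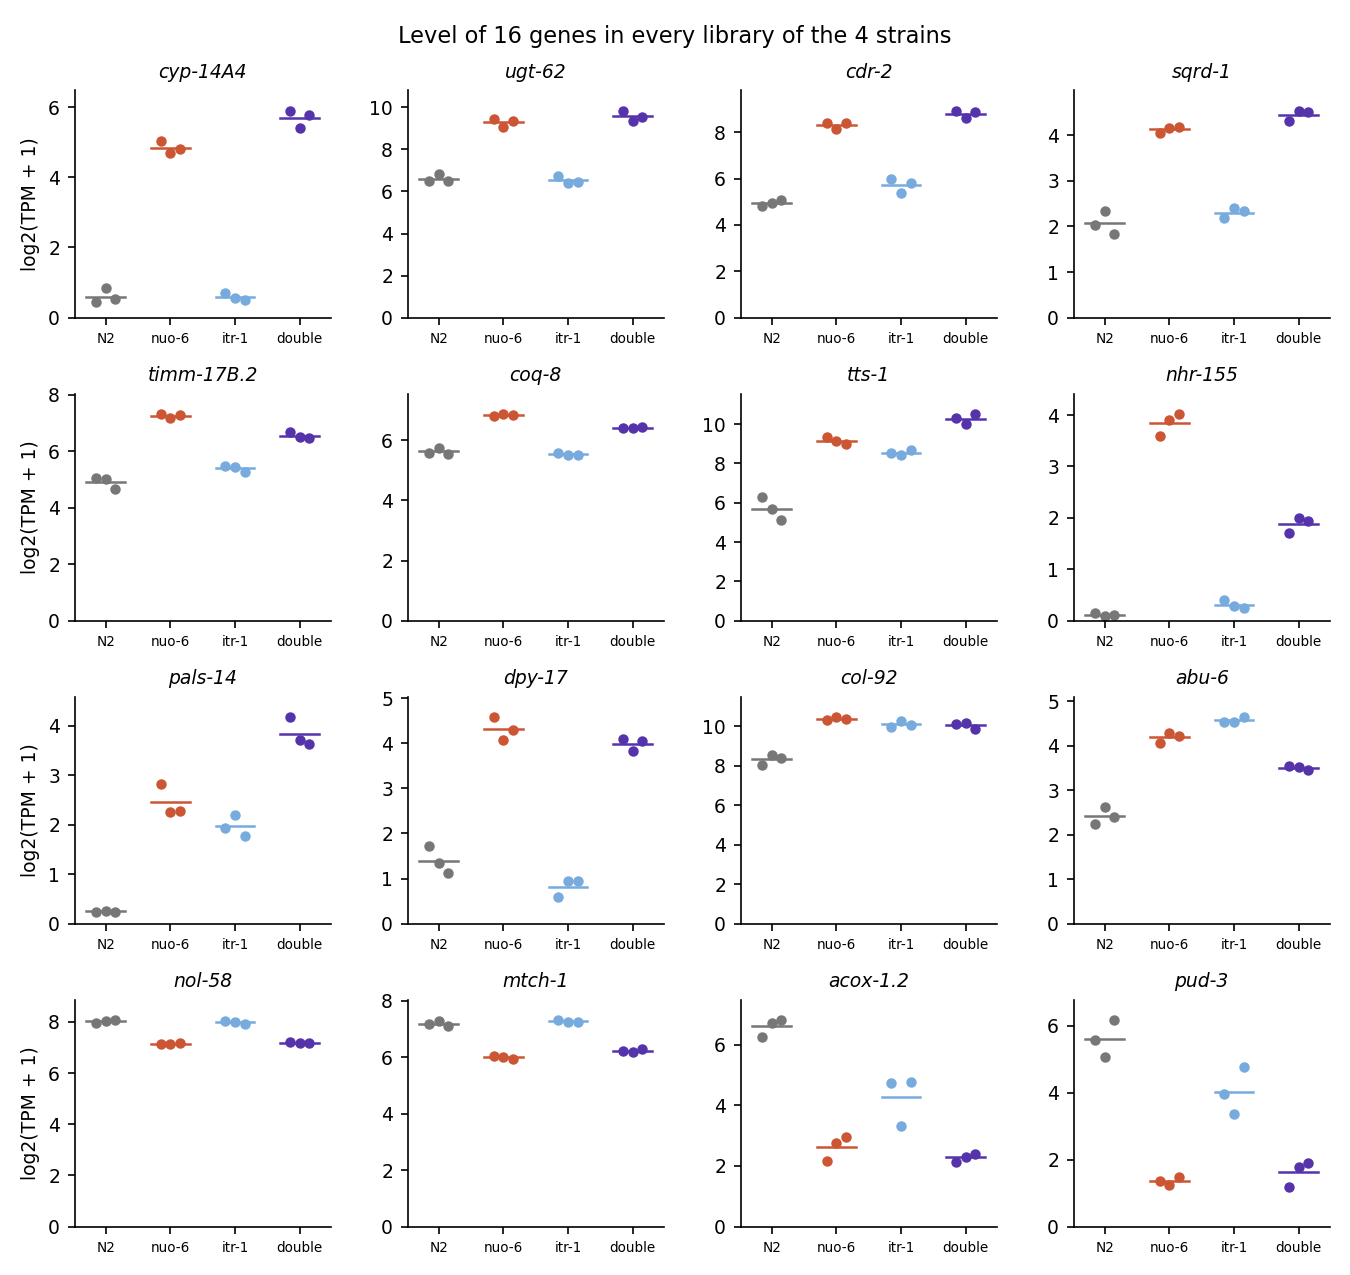
Points give log2(TPM + 1) of 16 genes in each library of N2, nuo-6, itr-1 and the double mutant, and lines the mean of 3 libraries. cyp-14A4, ugt-62, cdr-2 and sqrd-1 rose with nuo-6 in both backgrounds, col-92 was nearer to nuo-6 than to N2 in itr-1, and abu-6 rose in nuo-6 and was lower in the double mutant than in itr-1.

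The effect of the same allele was measured a second time, with no library in common, in the double mutant against itr-1. There 6763 of the 14643 genes (46.2%) were called, 4293 higher (29.3%) and 2470 lower (16.9%). Both comparisons took the spread of each gene from the same fit over all 12 libraries, so their calls are not fully independent. With the itr-1 and double mutant libraries fitted alone, 4920 genes were called, 3370 higher and 1550 lower. Of the 5500 genes higher in nuo-6 than in N2, 3310 (60.2%) were also higher in the double mutant than in itr-1 and 142 (2.58%) were lower. Of the 2293 lower genes, 1256 (54.8%) were also lower and 36 (1.57%) higher. Folds were smaller in the itr-1 background: for the 1312 genes that rose at least 2-fold, which were chosen on their fold in the N2 background, the median log2 fold was 1.48 there and 0.76 in the itr-1 background. The test of the difference between the 2 effects, the interaction, called 1825 genes (12.5%). The interaction was negative in 1272 of them (8.69% of all genes) and positive in 553 (3.78%). A negative value includes genes that fell further in the itr-1 background, such as fat-7. With median-of-ratios scaling 1159 were negative and 1046 positive, and with quantile scaling 1013 and 1029. The count of 1825 fell to between 876 and 1208 when any 1 of nuo-6 replicates 2 and 3, N2 replicates 1 and 3, itr-1 replicate 2 or double mutant replicate 1 was left out. With the replicate number as a block it was 2740.

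Gene groups differed in how far the effect was repeated. Nuclear hormone receptors had 118 of 174 genes higher in the double mutant than in itr-1 and 4 interactions, and F-box and BTB/MATH genes had 99 of 170 higher and 8 interactions. Of the 15 pals genes that rose in the N2 background, 14 also rose in the itr-1 background. Translation factors had 21 of 42 and ribosome biogenesis 22 of 35 genes lower, with 1 and 3 interactions. P450 genes had 34 of 54 higher but 16 interactions, 6 of them negative. That was 29.6% of the P450 genes, beside 12.5% of all genes, 2.3% of the receptors and 4.71% of the F-box and BTB/MATH genes. Among all genes called at least 2-fold higher in nuo-6 than in N2 the share was 43.5%. Such genes made up 42.6% of the P450 genes, 12.1% of the receptors and 18.8% of the F-box and BTB/MATH genes. The part of fold size in these differences was not tested. In the P450 gene cyp-14A4 the level rose from 0.628, 0.464 and 0.426 TPM in itr-1 to 58, 41 and 53.7 TPM in the double mutant.

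Collagens behaved otherwise. In the itr-1 background 14 of 139 were higher and 21 lower. An interaction was called in 66 (47.5%), 59 of them negative, beside 12.5% of all genes. Among all genes called at least 2-fold higher in nuo-6 than in N2 that share was 43.5%, and 43.9% of the collagens were such genes. col-92 was at 1009, 1227 and 1062 TPM in itr-1 and 1113, 1150 and 946 TPM in the double mutant, an effect of -0.04 against 2.04 in the N2 background (interaction -2.08, limma adjusted p = 5.28e-05). The itr-1 libraries stood above all N2 and below all nuo-6 libraries, and itr-1 and the double mutant overlapped. dpy-17 was an exception, at 0.501, 0.914 and 0.917 TPM in itr-1 and 16, 13.2 and 15.6 TPM in the double mutant (interaction 0.25, adjusted p = 0.546). Antimicrobial peptides had 23 interactions among 65 genes, transthyretin-related genes 19 among 51 and abu and pqn genes 23 among 63. abu-6 reversed, from 22.1, 22.1 and 23.9 TPM in itr-1 to 10.6, 10.4 and 9.96 TPM in the double mutant (interaction -2.83, limma adjusted p = 1.63e-06). All 6 pud genes had a positive interaction: pud-1.2 was at 98.4, 74 and 173 TPM in itr-1 and 107, 103 and 108 TPM in the double mutant. The oocyte markers were at a mean log2(TPM + 1) of 5.03 to 6.12 in itr-1 and 4.55 to 5.84 in the double mutant, above all N2 libraries. Of these 31 genes 1 had an interaction. Of 90 sperm genes 65 were lower and 2 higher in the double mutant than in itr-1, and 45 (50%) had an interaction, 44 of them negative. All 6 vitellogenins were lower there (median log2 fold -3.45), with 2 interactions. The part of these stage markers in these differences was not tested.

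**Figure D5:**
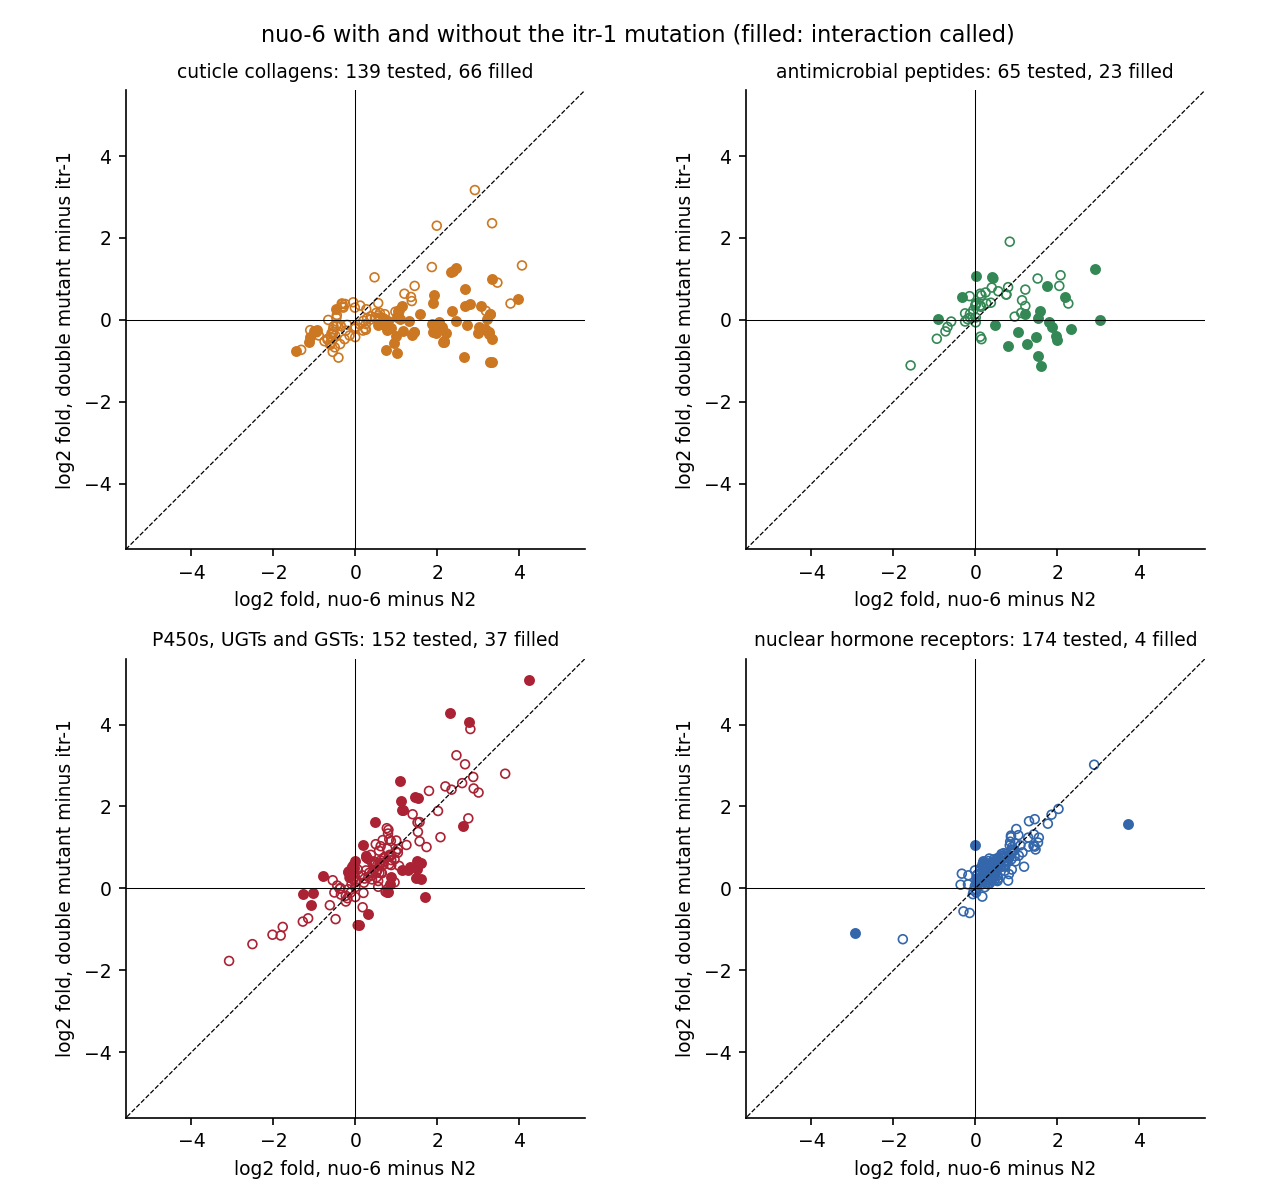
Each point is a gene, with its log2 fold in nuo-6 against N2 on one axis and in the double mutant against itr-1 on the other, for 139 collagens, 65 antimicrobial peptides, 152 detoxification genes and 174 nuclear hormone receptors. Filled points passed the test of the interaction, and the dashed line marks equal effects. Receptors lie along the line, and many collagens lie to the right of it near 0 in the itr-1 background.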

How the data were processed

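Whole L4 larvae of 4 strains were sequenced, with 3 biological replicates each, per the labels. The authors deposited 1 table of TPM (transcript shares corrected for length) for all 12 libraries, in which every library sums to 1000000. The genome build WBcel235 is named in the submitters' processing notes. The aligner and counting program were not given in the sources used here. TPM keep no read depth, so the depth per library is unknown and no counting interval can be given. Precision therefore rests on the 3 replicates of each group.

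A gene was tested if 3 or more of the 6 nuo-6 and N2 libraries held it at 1 TPM or higher. Values were transformed as log2(TPM + 1), which understates the change of low genes, and fitted over all 12 libraries with limma 3.58.1 (R 4.3.3), with 8 residual degrees of freedom and a mean-dependent prior. The contrasts were nuo-6 minus N2, double mutant minus itr-1, and their difference, the interaction. P-values were adjusted by Benjamini-Hochberg over the 14643 genes and called under 0.05. Where the design or TPM could change a result, other pseudocounts (0.1 and 0.5), a filter of 5 TPM, no filter, a filter over all 12 libraries, median-of-ratios and quantile scaling, TPM without ribosomal protein genes, a fit of the compared libraries alone, a prior with no trend, a replicate block, and leaving out single libraries were tried. The script was tested on simulated data. All 46926 gene IDs were found in the Ensembl annotation of WBcel235, and 116 gene names that were missing or shared by several IDs were taken from RefSeq by their start.

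Named genes come from the 15 largest rises and falls, at most 2 per gene class, among called genes with a full gene name, a mean of at least 5 TPM in the higher strain and libraries that do not overlap. Others are among the 6 members of each list with the lowest adjusted p, the longevity regulators, the isozyme and paralog pairs, and the mutated genes. Genes named outside this rule, ND1 and K06H6.2 among them, were chosen after their values were seen. The gene lists and members were chosen with earlier results of these data known.

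The labels number the replicates 1 to 3 in each strain without saying what a number shares. Deviations from the strain means of same-numbered N2 and nuo-6 libraries correlated across genes at r = 0.107 to 0.183 in all 3 pairs. That was above the limit of 0.1 set for a pairing, so a fit with the replicate number as a block was run as an alternative. The main p-values come from a fit of strain alone, without pairing. Numbers matched across all strains only in part. Deviations of libraries numbered 2 correlated at r = 0.166 to 0.538 in every pair of strains. The range was 0.0156 to 0.178 for replicate 1 and -0.0254 to 0.489 for replicate 3. N2 replicate 1 correlated at 0.315 with double mutant replicate 3 and at 0.0156 with double mutant replicate 1. Replicate 2 also had the highest mean log2(TPM + 1) of oocyte, sperm and vitellogenin genes in every strain. The main fit did not remove this shared part of replicate 2. No 2 libraries held identical values. Cultures are not described further, so p-values measure the spread between these samples, which may be in part technical.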

Additional observations from a re-analysis of the deposited data

Results flagged for a closer look

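Of 103 genes named above, 46 differed in the effect of nuo-6 between the N2 and the itr-1 background. The test was that of the interaction (limma, Benjamini-Hochberg over all 14643 genes), which called 12.5% of all genes. Many named genes were chosen on their nuo-6 against N2 values, which also enter the interaction, so the count cannot be set against that share. Among all genes called at least 2-fold higher in nuo-6 the share was 43.5%, and among those at least 2-fold lower 39.7%. The values below are the log2 effect in the itr-1 background minus that in the N2 background. In 28 genes the difference was negative and in 18 it was positive.

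Among extracellular and cuticle genes the interaction was -3.39 for col-19, -2.08 for col-92, -2.11 for grl-4, -1.62 for nas-30 and -2.83 for abu-6, and 0.69 for bli-2. Beside these genes, the oocyte markers, at a mean log2(TPM + 1) of 5.03 to 6.12 in itr-1 and 4.55 to 5.84 in the double mutant, were above all N2 libraries. Sperm genes had 45 interactions among 90, 44 of them negative, and all 6 vitellogenins were lower in the double mutant than in itr-1. The part of these stage markers in the differences was not tested. Among defence genes the interaction was -2.72 for fipr-11, -2.45 for clec-47, -1.11 for pals-6, -0.63 for bath-45 and 1.47 for lys-4. Among peptides and receptors it was -1.63 for nlp-27, -1.22 for nlp-67, -2.16 for nhr-155 and 1.83 for nhr-234.

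Among mitochondrial genes the interaction was -1.19 for timm-17B.2, -0.33 for coq-8, -0.40 for clk-1, -0.40 for coq-1, -0.32 for mpc-2, -0.53 for clpp-1 and 0.25 for atf-4. Each of these 7 genes had a smaller effect in the itr-1 background. Among enzymes and binding proteins of detoxification and lipids it was 0.86 for cyp-14A4, 1.14 for gst-10, 1.3 for gst-14, -2.16 for mtl-1, -1.40 for far-3, -2.19 for fat-5, -0.99 for fat-7, 1.97 for acox-1.2, 0.66 for acox-1.4 and -0.42 for prx-19. fat-7 fell further in the itr-1 background and cyp-14A4 and gst-14 rose further there, whereas fat-5 was at 48.3, 19.2 and 34.8 TPM in itr-1 and 38.8, 34.5 and 34.2 TPM in the double mutant, with no separation.

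Among the largest changes the interaction was -1.49 for tbb-6, -3.18 for gmd-2, -1.71 for tts-1, -1.13 for C07G1.7 and -4.19 for K06H6.2. gmd-2 reached 0.804, 3.87 and 1.16 TPM in the double mutant, beside 52.9 to 65.9 TPM in nuo-6. Among genes that fell it was 1.45 for exh-1, 1.92 for pud-1.1, 2.37 for pud-1.2, 2.02 for pud-2.1, 2.30 for pud-2.2, 1.84 for pud-3, 3.84 for BE0003N10.6, 3.89 for D1014.6 and 3.98 for D1014.7. BE0003N10.6 was at 10.2, 14.6 and 12.6 TPM in itr-1, below all N2 libraries.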

How the results depend on the processing

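Genes called higher in nuo-6 numbered 5500, but 3496 with median-of-ratios and 3214 with quantile scaling. Genes called lower numbered 2293, but 3844 and 4225, and those at least 2-fold lower 242, but 424 and 467. The number of genes lower in the double mutant than in itr-1 was 2470, and 1550 when only those 6 libraries were fitted. The interaction gave 1825 genes and 2740 with the replicate block. Of the 1825 genes 553 were positive, but 1046 with median-of-ratios scaling, 1029 with quantile scaling, 840 with the block and 339 without all replicates 2, a setting chosen after seeing the data. Negative interactions numbered 1272, and 1159 with median-of-ratios and 1013 with quantile scaling.

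Leaving out 1 library at a time gave 876 to 2598 interactions, 204 to 742 of them positive and 672 to 1856 negative. It gave 6608 to 7299 genes changed in nuo-6 against N2, 4579 to 5326 higher and 1916 to 2029 lower, with 1486 to 1659 at least 2-fold. The double mutant against itr-1 gave 5376 to 6948.

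Under the 18 alternatives none of the 103 named genes counted here reversed, and the calls of 6 of them changed. asb-2, asg-2, nuo-6 and trxr-1 lost theirs and ftn-2 gained one under other scalings, ftn-2 also without all replicates 2, and fat-6 gained one with the replicate block and without N2 replicate 3. pyk-2, which is outside that count of 103, lost its call with median-of-ratios scaling. The block changed the call of none of the 103 genes but fat-6. Apart from the interaction, it moved no count of all genes by over 1.5 times. Of 33 list counts of at least 10 that were examined, 2 moved by over 1.5 times without 1 library, those of oocyte and sperm genes called higher. With another scaling 15 did. With the block, counts of sperm, vitellogenin and germ line genes moved as well. A filter of 5 TPM lowered counts of rarely expressed families, such as F-box and BTB/MATH genes higher in nuo-6 from 93 to 43, P450 genes from 34 to 20 and nuclear hormone receptors from 119 to 71. The cause of the differences between settings was not tested. TPM give no depth, so the counting error of rare transcripts is unknown.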

Other observations

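Most tested genes that do not code for protein were pseudogenes (408), with 83 noncoding RNAs, 46 long intergenic RNAs and 14 small nucleolar RNAs. Pseudogenes had 129 genes higher and 83 lower, and long intergenic RNAs 10 higher and 5 lower, beside 5336 and 2191 of 14078 protein-coding genes. Markers of body wall muscle took 1.40% to 1.44% of all TPM in N2 and 1.32% to 1.35% in nuo-6. Their mean log2(TPM + 1) overlapped, at 9.30 to 9.33 in N2 and 9.28 to 9.32 in nuo-6. Of these 12 muscle genes 2 were higher and 3 lower, but 0 and 8 under median-of-ratios scaling. Intestinal markers took 0.517% to 0.536% and 0.467% to 0.515%. Their mean log2(TPM + 1), in which abundant genes weigh less, was 7.26 to 7.31 in N2 and 7.31 to 7.41 in nuo-6, without a fall in TPM as deposited. Of these 13 genes 5 were higher and 3 lower, but 0 and 5 under median-of-ratios scaling. The shares of all genes were 37.6% higher and 15.7% lower, and 23.9% and 26.3% under that scaling.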
